A study of Mus musculus with 77 samples.

Results

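Collagens, laminins, integrins and fibronectin were measured in dorsal root ganglia (DRG) of mice, the clusters of sensory neurons and glia beside the spinal cord. The genes were chosen by symbol alone. Any row named as a collagen chain (Col, a number, a, a number), a laminin chain (Lama, Lamb or Lamc), an integrin alpha chain (Itga) or an integrin beta chain (Itgb1 to Itgb8), or Fn1, was taken from each of 6 count tables. This gave 82 of the 18104 genes listed in any table: 43 collagen chains (11 fibrillar, 6 of basement membrane and 26 other), 11 laminin chains, 18 integrin alpha and 8 integrin beta chains, Fn1, and Col4a3bp. Col4a3bp matches by its letters only. It encodes the ceramide transfer protein and is not a collagen. It is left out of the collagen counts below but is inside all counts and medians of members. Of the 82, 75 were listed in the naive pulldown table, 80 in the naive input table, 77 in the naive supernatant table, 46 in the Dhh pulldown injury table, 38 in the Isl1 input injury table and 14 in the Isl1 pulldown injury table. Only 14 were listed in all 6.

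The RiboTag mouse carries an Rpl22 allele whose ribosomal protein gains an HA tag in cells that express Cre, so that an HA immunoprecipitation (IP) pulls down ribosomes, with their mRNA, from those cells. Homozygous Rpl22-HA mice that were heterozygous for Dhh-Cre (active in Schwann cells and satellite glia), Runx3-Cre (proprioceptive neurons) or Isl1-Cre (sensory neurons) were on the ICR background, those with PGK-Cre (all cells) on C57BL/6, and Adv-Cre mice (sensory neurons, C57BL/6) were heterozygous for both alleles. All were males of 8 to 12 weeks. Naive mice gave IP, supernatant (the lysate left after IP) and input (total lysate) libraries, 3 of each per line except the Dhh IP, where 2 libraries with counts were analysed. The injury series held Dhh IP at 4, 12 and 24 h after a sciatic nerve lesion (3, 3 and 2 libraries) with 3 naive libraries, Isl1 IP at the same times with naive (3 each), and Isl1 input at 4, 12 and 24 h (2 each) with 3 naive libraries. There was no sham operation. Where a line on ICR is set against PGK, the line and the strain cannot be told apart. The labels do not say whether replicates were separate animals, so p-values measure only the spread between these samples.

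Collagens are trimeric matrix proteins. Fibrillar collagens (types I, III, V and XI) build fibres, type IV collagen forms the sheet of the basement membrane, and types VI and XXVIII are among those that form other networks. Laminins are trimers of an alpha, a beta and a gamma chain and polymerise on the cell surface to start the basement membrane, the layer that encloses each axon and Schwann cell unit and each satellite glial sheath. Integrins are the alpha-beta receptors for these ligands. Integrins of the beta1 chain with alpha3, alpha6 or alpha7 bind laminins, alpha6 with beta4 binds laminin on myelinating Schwann cells, and alpha-v chains bind fibronectin and vitronectin. In regenerating sensory neurons alpha7 beta1 integrin is known for its part in axon growth on laminin.

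Library totals ran between 29710143 and 54088821 counts. Values below are counts scaled to a library total of 1e+06 (CPM) unless given per kilobase of transcript (FPKM), the only scale on which genes are compared with each other. Across the 12 neuronal markers, the summed level was 1303 and 1911 CPM in naive Dhh IP libraries, against 35126 to 36731 CPM in naive Isl1 IP libraries. The 10 markers of myelinating Schwann cells gave 44894 and 45559 CPM with the Dhh line, against 882 to 1044 CPM with the Isl1 line, and the 8 satellite glia markers 11811 and 12949 CPM, against 1361 to 1855 CPM. The markers thus fitted the lines, although glial mRNA was not at 0 in the neuronal pulldowns. The 9 fibroblast markers gave 326 and 380 CPM in Dhh IP libraries, 40.9 to 45.1 CPM in Isl1 IP libraries and 488 to 1405 CPM over all inputs. Levels are compared within a table, except that IP and supernatant are set against input, which is a table of its own. The injury tables hold separate naive libraries, in which some members stood far from the naive tables, for example, as means of naive Dhh IP libraries in the injury and the naive table, Itgb8 at 867 and 37.1 CPM, Itga6 at 647 and 74.4 CPM, and Itga7 at 48.7 and 235 CPM. Among all genes listed in both, 20.7% were over 4-fold apart, and the cause was not tested. In pooled tissue of this kind, fewer cells of a type and less RNA per cell cannot be told apart.

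The first comparison was between naive glial and naive neuronal ribosomes. Most matrix genes were far higher in the Dhh IP, by a median of 5.09 on the log2 scale over the 33 members tested, against a median of -0.05 over all 10600 genes. Of the 33, 31 were higher and 2 lower at a Benjamini-Hochberg adjusted p (FDR) under 0.1 by edgeR's quasi-likelihood test. Over all genes 41.2% were higher and 43.5% lower, so being called is common in this comparison. All 18 collagens tested, all 5 laminins and 8 of 9 integrins were higher. A gene was tested if its mean FPKM over the naive IP libraries was above 1. As 32 of the 33 exceeded 1 FPKM in the Dhh IP and only 11 did so in the Isl1 IP, most entered the test through the line in which they were high. The counts and the median of 5.09 both depend on that filter. Without that filter 59 members were higher and 9 lower, and the shares of all genes above do not apply to these counts.

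**Figure D1:**
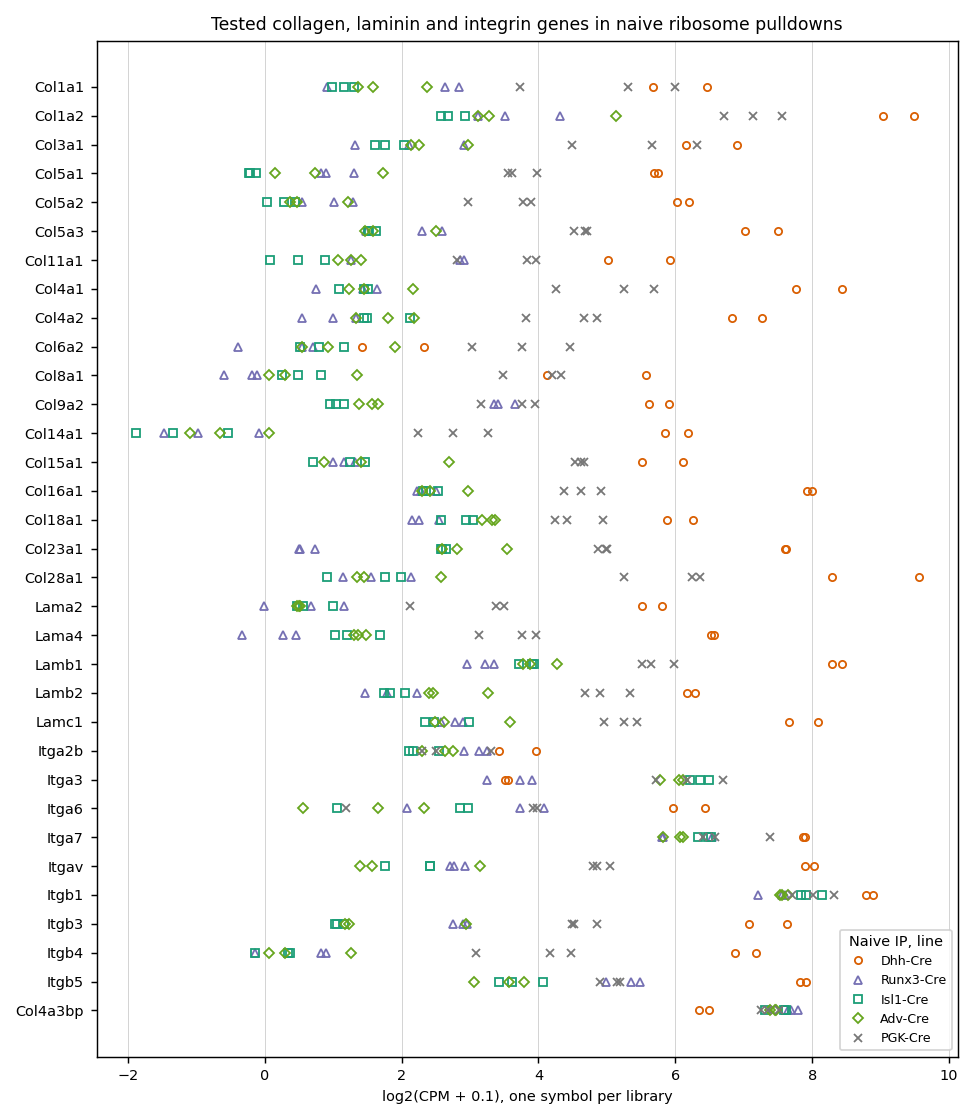
Level of each of the 33 tested genes in every naive IP library, as log2(CPM + 0.1), with 1 symbol per library and 1 colour per Cre line. Dhh-Cre libraries lie to the right of all others for most collagens and laminins, to the left of all others for Col4a3bp, and beside the low Runx3-Cre libraries for Itga3.

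Among the fibrillar collagens, Col1a2, a chain of type I collagen, had 526 and 716 CPM in the Dhh IP, against 7.49, 5.88 and 6.29 CPM in the Isl1 IP. The groups did not overlap, and the log2 fold change was 6.63 ± 0.62 (SE, FDR 8.5e-07). Its partner Col1a1 had 50.7 and 88.1 CPM in the Dhh IP, against 1.88, 2.37 and 2.14 CPM in the Isl1 IP (log2 fold change 5.09 ± 0.64). Col3a1, which co-assembles with type I fibres, had 71.1 and 120 CPM in the Dhh IP and 2.95, 4.01 and 3.29 CPM in the Isl1 IP (log2 fold change 4.87 ± 0.53). Col5a3, a type V chain, differed by 5.83 ± 0.37. The part that fibroblast mRNA had in these differences was not tested, its markers standing at 326 and 380 CPM in Dhh IP libraries and 40.9 to 45.1 CPM in Isl1 IP libraries.

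Type I and III collagen differed less when the Dhh IP was set against the PGK IP, in which every cell type carries the tag. Col1a1 had 50.7 and 88.1 CPM in the Dhh IP and 39.6, 13.1 and 63.9 CPM in the PGK IP. These groups overlapped, and the difference of 1.00 ± 0.57 did not pass (FDR 0.13). Col3a1 differed by 1.07 ± 0.48 (FDR 0.057) with overlapping libraries, and was not called without Dhh IP replicate 3 or PGK IP replicate 2. Col1a2 was higher, with 526 and 716 CPM in the Dhh IP against 140, 105 and 188 CPM in the PGK IP (log2 fold change 2.24 ± 0.53, FDR 0.0021). Across the 33 tested members 29 were higher and 3 lower in the Dhh IP than in the PGK IP, with 41.1% of all genes higher and 41% lower. Without the filter on low values 50 were higher and 18 lower, counts to which these shares of all genes do not apply. The greatest differences, from 3.42 to 3.18, were those of Col16a1, Col14a1, Itgav and Col28a1. In the naive Dhh IP of the injury series Col16a1 averaged only 10.6 CPM, against 248 CPM here, whereas Col14a1, Itgav and Col28a1 stood higher there. That series held no PGK IP, so the difference could not be read in it.

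Col6a1, Col6a2 and Fn1 were lower in the Dhh IP than in the Dhh input, as were Itga3 and Col4a3bp. Fibrillar collagens went the other way, with 5 of 6 tested higher and 0 lower, beside 43% of all genes higher and 42% lower. Fn1, the fibronectin gene, had 2.93 and 4.35 CPM in the Dhh IP, against 32.9, 40.7 and 34.8 CPM in the input of the same line. No IP library reached the lowest input value, and the log2 fold change was -3.21 ± 0.43 (FDR 5.8e-07). Col6a2, a type VI chain, had 2.59 and 4.91 CPM in the Dhh IP, against 21.2, 15.6 and 30.5 CPM in the Dhh input (log2 fold change -2.47 ± 0.49). It was also lower in the Dhh IP than in the PGK IP (13.5, 8.09 and 21.8 CPM, FDR 0.0081), but higher than in the Isl1 IP (log2 fold change 1.22 ± 0.50, FDR 0.039, not called without Dhh IP replicate 3). Col6a1 had 3.53 and 6.24 CPM in the Dhh IP, against 19.7, 17.3 and 27.6 CPM in the Dhh input (log2 fold change -2.03 ± 0.46). The fibroblast markers were also lower in the Dhh IP, 326 and 380 CPM, than in the Dhh input, 969 to 1405 CPM, and their part in this was not tested.

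Of 5 type IV collagen chains listed, 2 were tested, and both were higher in the Dhh IP than in the Isl1 IP. Col4a1, the first chain of the common type IV collagen, had 216 and 345 CPM in the Dhh IP, against 2.02, 2.75 and 2.65 CPM in the Isl1 IP. Every Dhh library exceeded every Isl1 library, with a log2 fold change of 6.89 ± 0.45 (FDR 3.6e-08). Its partner chain Col4a2 had 114 and 153 CPM in the Dhh IP, against 2.71, 4.23 and 2.63 CPM in the Isl1 IP (log2 fold change 5.45 ± 0.36). Both also exceeded the PGK IP, by 3.11 ± 0.38 and 2.69 ± 0.33.

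In the mm10 annotation Col4a1 (chromosome 8, 11198423 to 11312826, minus strand) and Col4a2 (chromosome 8, 11312805 to 11449287, plus strand) lie head to head, and their annotated transcripts share 22 bases. No source used here says whether counting went by strand, so reads from that short overlap cannot be told apart. The promoter windows of both, and that of Itgav (chromosome 2, 83724397 to 83806916, plus strand), are shown because these genes were called together after injury below. RefSeq windows run from 250 bases before to 50 after the annotated start (GRCm38.p6). Of the 82 genes 57 had such an entry, and of the 4 called together in the Isl1 IP at 12 h all but Lamc1 (chromosome 1, 153218922 to 153332786, minus strand) had one. Capitals mark the letters GGGCGG and CCAAT on either strand.

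Col4a1, chr8:11312777-11313076, minus strand: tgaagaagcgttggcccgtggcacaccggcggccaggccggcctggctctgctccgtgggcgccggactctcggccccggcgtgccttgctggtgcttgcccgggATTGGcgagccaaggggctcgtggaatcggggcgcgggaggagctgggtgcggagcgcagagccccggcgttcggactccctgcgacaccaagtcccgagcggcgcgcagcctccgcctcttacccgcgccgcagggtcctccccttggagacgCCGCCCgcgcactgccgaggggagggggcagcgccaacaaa
Col4a2, chr8:11312555-11312854, plus strand: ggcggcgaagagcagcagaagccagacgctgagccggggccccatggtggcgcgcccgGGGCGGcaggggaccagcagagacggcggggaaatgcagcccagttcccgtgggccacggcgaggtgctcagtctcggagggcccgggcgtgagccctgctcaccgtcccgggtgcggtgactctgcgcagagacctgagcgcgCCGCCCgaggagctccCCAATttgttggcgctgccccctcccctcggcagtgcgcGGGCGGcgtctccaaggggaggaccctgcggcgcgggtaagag
Itgav, chr2:83724147-83724446, plus strand: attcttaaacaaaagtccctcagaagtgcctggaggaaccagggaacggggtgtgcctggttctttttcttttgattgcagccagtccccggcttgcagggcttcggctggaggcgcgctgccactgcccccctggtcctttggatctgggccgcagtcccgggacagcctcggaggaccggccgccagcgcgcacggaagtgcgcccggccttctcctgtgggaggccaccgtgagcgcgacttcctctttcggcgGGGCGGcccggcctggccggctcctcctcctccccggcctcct

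The Col4a1 and Col4a2 windows overlap by 78 bases on opposite strands. GGGCGG occurred 1 time in the Col4a1 window, 3 times in that of Col4a2 and 1 time in that of Itgav. The Col4a1 match (bases 260 to 265 of its window) and the last Col4a2 match (bases 258 to 263) are the same bases, within the overlap. Of all 32851 promoter windows of this length, 35.7% held it at least 1 time. CCAAT occurred 1 time each in the Col4a1 and Col4a2 windows and not in that of Itgav, with 37.4% of all windows holding it. The letters TGANTCA, where N is any base, were in none of the 3 windows and in 7.81% of all. These matches describe the letters only.

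The 5 laminin chains tested, of 10 listed, were higher in the Dhh IP as well. Lamb1 had 312 and 347 CPM in the Dhh IP, against 15.1, 14.8 and 13 CPM in the Isl1 IP (log2 fold change 4.59 ± 0.20, FDR 2e-09). Lamc1, the gamma chain shared by most laminins, had 202 and 272 CPM in the Dhh IP and 4.98, 7.8 and 5.46 CPM in the Isl1 IP (log2 fold change 5.35 ± 0.34). Lama4 had 92 and 94.5 CPM in the Dhh IP, against 1.93, 3.12 and 2.19 CPM in the Isl1 IP (log2 fold change 5.33 ± 0.27). None of these groups overlapped. Lama2, whose loss causes a muscular dystrophy with neuropathy, was higher by 5.11 ± 0.38 and Lamb2 by 4.45 ± 0.30. Lama5 did not reach 1 FPKM and was not tested, with 11.4 and 6.18 CPM in the Dhh IP and 0.683, 0.518 and 0.491 CPM in the Isl1 IP. The 10 laminin genes listed summed to 799 CPM (740 and 857) in the Dhh IP and 33.8 CPM (31.2 to 38.9) in the Isl1 IP.

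Col28a1, a type XXVIII collagen of Schwann cell basement membranes, was among the most abundant members in the Dhh IP. Per length its mean was 126 FPKM, beside Itgb1 at 119.5 and Col1a2 at 116 FPKM, and as its libraries of 314 and 753 CPM differed widely these means cannot be ordered. The Isl1 IP held 1.78, 3.27 and 3.89 CPM of Col28a1 (log2 fold change 7.55 ± 0.59, FDR 1.6e-07). Col14a1, which binds collagen fibres, showed a similar difference. It had 57.3 and 72.6 CPM in the Dhh IP and 0.171, 0.296 and 0.586 CPM in the Isl1 IP (log2 fold change 7.56 ± 0.56).

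Of 9 integrins tested, 8 were higher in the Dhh IP than in the Isl1 IP and 1, Itga3, was lower, beside 41.2% of all genes higher and 43.5% lower. Itgb1, the common beta chain, was abundant in both, with 439 and 473 CPM in the Dhh IP and 240, 281 and 229 CPM in the Isl1 IP. The groups did not overlap, and the log2 fold change was 0.93 ± 0.14 (FDR 7.1e-05). Itgb4, the laminin receptor chain of myelinating Schwann cells, had 144 and 117 CPM in the Dhh IP, against 0.805, 1.16 and 1.19 CPM in the Isl1 IP (log2 fold change 7.00 ± 0.48). Its partner Itga6 had 62.7 and 86 CPM in the Dhh IP and 1.98, 7.77 and 7.12 CPM in the Isl1 IP (log2 fold change 3.79 ± 0.80, FDR 0.00088). Itgb4 libraries were thus near 0 in the neuronal IP while Itga6 was low but variable there.

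Itgav and its partner chain Itgb5 were also higher in the Dhh IP than in the Isl1 IP. Itgb5 was not confined to glia, with means of 76.3 FPKM in the Dhh IP, 12.8 in the Runx3 IP and 11.1 in the PGK IP. Itgav had 238 and 261 CPM in the Dhh IP, against 5.22, 3.27 and 5.25 CPM in the Isl1 IP (log2 fold change 5.83 ± 0.48). Itgb5 had 241 and 225 CPM in the Dhh IP and 10.6, 12.1 and 16.6 CPM in the Isl1 IP (log2 fold change 4.21 ± 0.23). Another partner of Itgav, Itgb8, did not pass the FPKM filter, with 26.5 and 47.8 CPM in the Dhh IP and 0.195, 0.166 and 0.246 CPM in the Isl1 IP. Itga7, a laminin receptor chain of neurons and glia, was also higher in the Dhh IP of the naive table. It had 233 and 237 CPM in the Dhh IP and 92, 89.1 and 80.6 CPM in the Isl1 IP (log2 fold change 1.49 ± 0.26, FDR 0.00023). In the naive libraries of the injury tables the order was the opposite, at 45.7, 38 and 62.4 CPM in the Dhh IP, against 91.9, 95.9 and 92 CPM in the Isl1 IP, a difference that was not tested. The direction for Itga7 therefore depends on the table.

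Itga3 was the exception among the integrins tested. This laminin receptor chain had 11.6 and 11.3 CPM in the Dhh IP, against 82, 90.2 and 73.8 CPM in the Isl1 IP. The Dhh libraries lay far below every Isl1 library, and the log2 fold change was -2.78 ± 0.25 (FDR 5.2e-07). Col4a3bp, the ceramide transfer protein gene, was the only other tested member lower in glia (log2 fold change -1.03 ± 0.11). Per length, the integrins that led in the Isl1 IP were Itgb1 (65.6 FPKM), Itga7 (21.7 FPKM) and Itga3 (16.9 FPKM), with Itgb5 next at 4.3 FPKM and no tested collagen or laminin above 2.48 FPKM. The leukocyte chains Itgam and Itgb2 were low in both, at 0.277 and 0.37 CPM (Itgam) and 1.11 and 1.41 CPM (Itgb2) in the Dhh IP, and were not tested. Itga4, a fibronectin receptor chain, and Itga5, the main one, were also below the filter.

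The neuronal lines were then compared with whole-tissue ribosomes and with each other. In the Isl1 IP against the PGK IP, 0 members were higher and 27 of 33 lower, with 5.24% of all genes higher and 14.9% lower. Of the 33 tested, 32 exceeded 1 FPKM in the PGK IP and 11 in the Isl1 IP. Most thus entered the test through lines in which they were high, and the count depends on that filter. DESeq2 called 1 higher and 27 lower. The falls were led by Col1a2 (-4.39 ± 0.55), Col28a1 (-4.37 ± 0.50), Col14a1 (-4.19 ± 0.49) and Col1a1 (-4.09 ± 0.60). Integrins again stood apart, as 4 of 9 were lower and Itga2b, Itga3, Itga6, Itga7 and Itgb1 did not pass. Itga3 was at 0.18 (FDR 0.58), Itga7 at -0.34 (FDR 0.39) and Itga6 at -0.87 (FDR 0.46).

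The Runx3 IP, from proprioceptive neurons, was set against the Isl1 IP, from sensory neurons at large. Here 11 members were higher and 5 lower, with 30% of all genes higher and 25.8% lower, beside 33.3% and 15.2% of the members. Among the 11 was Col4a3bp (log2 fold change 0.41). Itga3 had 14.9, 9.4 and 13.1 CPM in the Runx3 IP, against 82, 90.2 and 73.8 CPM in the Isl1 IP. The groups did not overlap, and the log2 fold change was -2.52 ± 0.21 (FDR 1.2e-06), so that the proprioceptor libraries spanned the Dhh IP values of 11.6 and 11.3 CPM. Col23a1, a membrane-bound collagen, had 1.56, 1.33 and 1.32 CPM in the Runx3 IP, against 5.86, 5.92 and 6.18 CPM in the Isl1 IP (log2 fold change -1.89 ± 0.23). Lama4 (-1.03 ± 0.24) and Lamb1 (-0.47 ± 0.17) were also lower.

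Of the genes higher in proprioceptors, Col9a2, a chain of type IX collagen best known from cartilage, differed most. It had 10.1, 12.5 and 10.5 CPM in the Runx3 IP and 1.83, 1.96 and 2.14 CPM in the Isl1 IP (log2 fold change 2.70 ± 0.22, FDR 1.1e-06). Itgb5 had 44.7, 31.5 and 40.8 CPM in the Runx3 IP and 10.6, 12.1 and 16.6 CPM in the Isl1 IP (log2 fold change 1.77 ± 0.20). Itgb3, the beta chain known from platelets, had 6.62, 7.32 and 7.65 CPM in the Runx3 IP, against 1.93, 2.13 and 1.98 CPM in the Isl1 IP (log2 fold change 2.04 ± 0.43). Col11a1 was higher by 2.26 ± 0.43. It was 1 of 6 fibrillar collagens higher, with 0 lower of 7 tested and a median log2 fold change of 1.21, beside 30% of all genes higher. Their levels were low in both lines, for Col11a1 means of 0.73 FPKM in the Runx3 IP and 0.17 in the Isl1 IP. Of the 7 only Col1a2 exceeded 1 FPKM in either, at 2.47 and 1.23 FPKM. The rest passed the filter through other lines. Proprioceptor markers summed to 3190 to 4289 CPM in the Runx3 IP and 458 to 558 in the Isl1 IP. Myelinating Schwann cell markers were lower in the Runx3 IP, 262 to 303 CPM against 882 to 1044, macrophage markers higher, 44.7 to 75.4 CPM against 8.43 to 24.9, and neutrophil markers higher, 64.1 to 223 CPM against 4.1 to 9.6. The part of these cells, and of fibroblasts, in these differences was not tested. Itga4, below the filter, had 15.1, 10.9 and 12.3 CPM in the Runx3 IP and 5.49, 7.17 and 6.73 CPM in the Isl1 IP.

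IP against input of the same line asked which genes were enriched on the tagged ribosomes. A gene was tested if its mean FPKM over the naive IP and input libraries of all lines was above 1. The counts and medians for each line depend on that filter. In the Dhh line 25 of 34 members tested were higher in IP and 5 lower, with 43% of all genes higher and 42% lower. Col28a1 had 314 and 753 CPM in the Dhh IP, against 15.4, 12.9 and 23.9 CPM in the Dhh input (log2 fold change 5.05 ± 0.52, FDR 7.5e-09). Itga6 (4.38 ± 0.81), Col23a1 (3.44 ± 0.21) and Itgb3 (3.42 ± 0.36) followed. The 5 lower were Fn1, Itga3 (-2.57 ± 0.25), Col6a2, Col6a1 and Col4a3bp (-0.96 ± 0.10). Col1a1 had a difference of 0.72 and did not pass (FDR 0.18).

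In the neuronal lines most of the members that passed this filter were lower in the IP. In the Isl1 line 0 members were higher and 29 of 34 lower, with 12.7% of all genes higher and 19.4% lower. In the Adv line 0 were higher and 30 lower, with 21.9% and 25.5% of all genes, and in the Runx3 line 3 were higher and 29 lower, with 35.7% and 37.7% of all genes. DESeq2 also called 0 members higher in the Isl1 and Adv lines. The member medians were -2.90 in the Isl1, -2.62 in the Adv and -2.38 in the Runx3 line, beside all-gene medians between -0.02 and 0.04. Col1a1 was lowest in the Isl1 line (-4.68 ± 0.53), Col6a1 in the Adv line (-4.18 ± 0.44) and Fn1 in the Runx3 line (-4.08 ± 0.39).

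Itga3 again separated the neuronal lines. It had 82, 90.2 and 73.8 CPM in the Isl1 IP, against 103, 81.5 and 80.3 CPM in the Isl1 input, and the groups overlapped at a difference of -0.07. In the Runx3 line it had 14.9, 9.4 and 13.1 CPM in the IP, against 77.6, 78 and 56 CPM in the input (log2 fold change -2.30 ± 0.21). The genes higher in the Runx3 IP were Itga6 (2.20 ± 0.73, FDR 0.01, libraries overlapping), Itgb5 (0.77 ± 0.16) and Col4a3bp (0.46 ± 0.09).

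**Figure D2:**
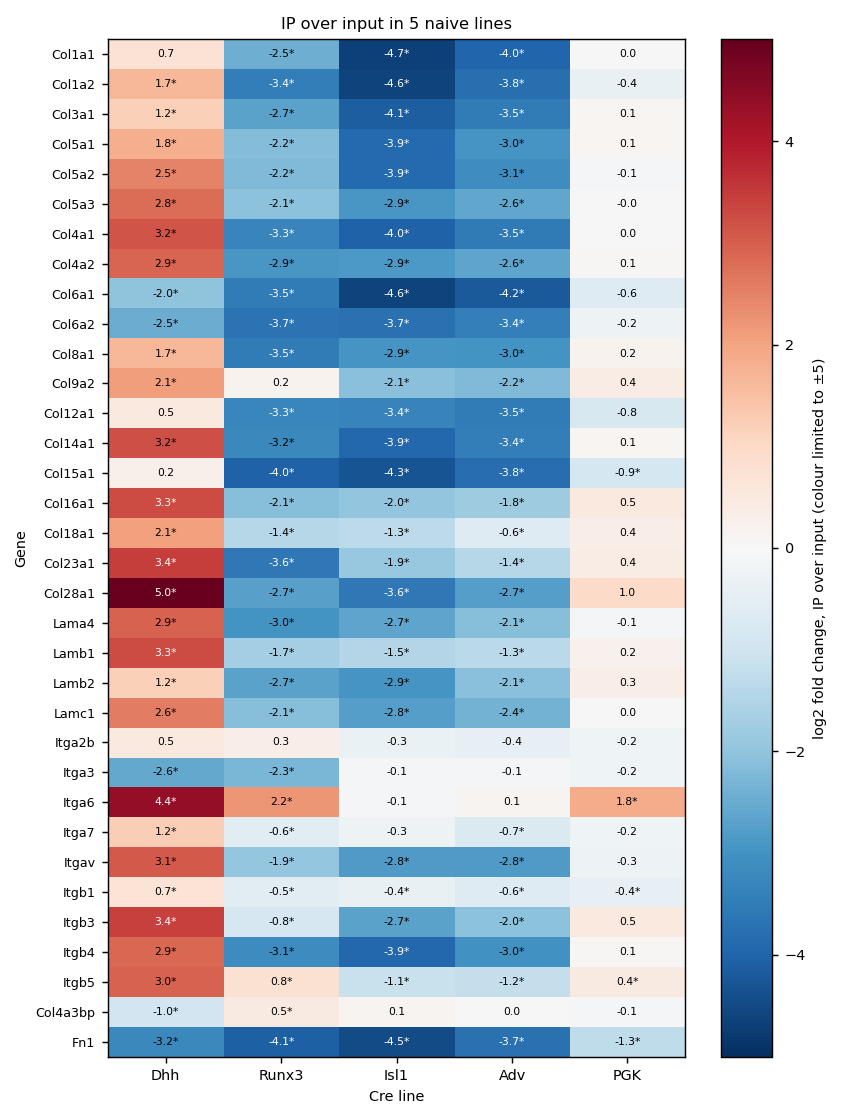
Fold change of IP over input (log2, colour and printed value, asterisk at FDR under 0.1) for each of the 34 tested genes in the Dhh, Runx3, Isl1, Adv and PGK lines. The Dhh column is mostly positive and the 3 neuronal columns mostly negative, and the PGK column has 5 genes called, from Fn1 at -1.26 to Itga6 at 1.84.

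Where all cells carry the tag, fewer members were called. In the PGK line 2 members were higher and 3 lower, with 8.94% of all genes higher and 10.2% lower, and the member median was 0.03. Fn1 had 7.57, 8.76 and 11 CPM in the PGK IP, against 17.2, 19.8 and 25.2 CPM in the PGK input. The IP libraries were all below the input libraries, with a log2 fold change of -1.26 ± 0.34 (FDR 0.019). Col15a1 was also lower (-0.89 ± 0.33). The largest difference was that of Itga6, with 15.6, 2.18 and 15.1 CPM in the PGK IP, against 4.48, 1.79 and 2.28 CPM in the PGK input (log2 fold change 1.84 ± 0.72, FDR 0.095). Its replicate 2 was low in the IP, the groups overlapped, and the call was lost without IP replicate 1 or 3 or input replicate 2 or 3. Col15a1 lost its call without the same libraries. Same-numbered IP and input libraries of this line deviated together, and the fit with the replicate block called 9 members, 4 higher and 5 lower. Without PGK IP replicate 1 or PGK input replicate 2, 2 members were called. Between supernatant and input over the 5 lines, 4 members were higher and 0 lower of 39 tested, with 10.5% of all genes higher and 10.2% lower. At an unadjusted p under 0.05 there were 5, and DESeq2 called 5 higher and 0 lower. The 4 differed by 0.19 to 0.25 (Itgb5, Col23a1, Lamb2 and Lamb1), with overlapping libraries, and only 1 to 3 were called when any 1 replicate number was left out (1 without replicate 2 or replicate 3). With the replicate block 10 were higher and 7 lower, and the shares of all genes above are not those of that fit.

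After sciatic nerve injury, the glial pulldown changed most at 12 h. At 4 h 2 of 45 tested members were higher in injured Dhh IP and 0 lower, with 0.553% of all 11040 genes higher and 0.625% lower. At an unadjusted p under 0.05 there were 11, and DESeq2 called 4 higher and 0 lower. Col12a1, a fibril-associated collagen, had 121, 149 and 105 CPM in 4 h Dhh IP and 75.1, 70.1 and 55.7 CPM in naive Dhh IP (log2 fold change 0.93 ± 0.16, FDR 0.015). Col27a1, a minor fibrillar collagen, had 53.8, 51.2 and 52.6 CPM in 4 h libraries and 29.9, 34.3 and 18.6 CPM in naive (log2 fold change 0.96 ± 0.22, FDR 0.071). With 1 library left out, Col12a1 lost its call only without 4 h replicate 2, and Col27a1 kept its call only without naive replicate 2. Satellite glia markers summed to 15835 to 17406 CPM at 4 h and 12193 to 14940 CPM in naive Dhh IP, and their part was not tested.

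At 12 h 19 members were higher and 3 lower, with 17.7% of all genes higher and 15.2% lower. The median over the 45 was 0.38, against -0.01 over all genes. Of 25 collagens 9 were higher and 1 lower, all 5 laminins were higher, and of 14 integrins 5 were higher and 2 lower. The 5 laminins listed summed to 2244 CPM (1964 to 2652) at 12 h and 1325 CPM (1291 to 1343) in naive Dhh IP.

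Lamc1, Col4a1 and Col4a2 had the lowest FDR of the members. Col4a1 had 222, 266 and 216 CPM in naive, 264, 227 and 226 at 4 h, 608, 459 and 571 at 12 h, and 338 and 312 CPM at 24 h in the Dhh IP. The 12 h libraries were all above the naive ones (log2 fold change 1.41 ± 0.14, FDR 6.2e-06), and the 24 h libraries lay between. Col4a2 had 195, 276 and 237 CPM in naive, 299, 218 and 242 at 4 h, 512, 335 and 420 at 12 h, and 311 and 291 CPM at 24 h (12 h log2 fold change 1.03 ± 0.17). Lamc1 had 587, 668 and 633 CPM in naive, 601, 649 and 532 at 4 h, 1769, 1313 and 1277 at 12 h, and 815 and 698 CPM at 24 h. Its 12 h libraries were about as far above naive as those of Col4a1 (log2 fold change 1.39 ± 0.13, FDR 3.8e-06), and neither was called at 24 h.

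The other laminin chains changed less. Lama4 differed by 0.49 ± 0.12 with 12 h libraries all above naive, and Lama2 (0.38 ± 0.12), Lamb1 (0.26 ± 0.10) and Lamb2 (0.56 ± 0.18) were called with overlapping libraries. Lamb1 lost its call in 5 and Lamb2 in 3 of 6 fits with 1 library left out. Col18a1, whose C-terminal fragment is endostatin, had 17.9, 22 and 16.8 CPM in naive, 27.9, 23.5 and 22.6 at 4 h, 42.8, 39.3 and 26.5 at 12 h, and 38.6 and 49 CPM at 24 h. It was higher at both later times (1.12 ± 0.19 at 12 h and 1.19 ± 0.21 at 24 h, FDR 0.0078).

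Among integrins in the Dhh IP, Itgav had 1041, 814 and 716 CPM at 12 h and 669, 690 and 645 CPM in naive (log2 fold change 0.54 ± 0.12, FDR 0.003). Itgb8 had 1148, 1092 and 1158 CPM in 12 h libraries and 953, 790 and 859 CPM in naive (0.58 ± 0.14, FDR 0.0063). Itga5, the fibronectin receptor chain, was low throughout. It had 13.1, 4.86 and 5.22 CPM in 12 h libraries, where replicate 1 stood above the others, and 3.44, 2.33 and 3.19 CPM in naive (log2 fold change 1.55 ± 0.40, FDR 0.011). Itgb3 went the other way, with 151, 186 and 205 CPM in naive, 183, 190 and 173 at 4 h, 55.3, 87.9 and 68.3 at 12 h, and 113 and 235 CPM at 24 h. The 12 h libraries were below all others (log2 fold change -1.16 ± 0.23, FDR 0.0017), and the 24 h libraries were far apart from each other. Col26a1 (-1.16 ± 0.41, FDR 0.052) and Itga1, a collagen receptor chain (-0.44 ± 0.18, FDR 0.091), were also lower at 12 h, each losing its call in 4 of 6 fits with 1 library left out. Itga7, by contrast, had 92.6, 71.6 and 86.4 CPM in 4 h libraries and 45.7, 38 and 62.4 CPM in naive, a difference of 0.81 that was not called (FDR 0.1).

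At 12 h in the Dhh line, satellite glia markers gave 9893 to 11674 CPM, against 12193 to 14940 CPM in naive, and markers of myelinating Schwann cells 22736 to 30105 CPM, against 21544 to 25489 CPM. Of the fibroblast markers 3 of 9 were listed, with a sum of 136 to 192 CPM at 12 h and 169 to 203 CPM in naive. Of the perineurial markers 3 of 4 were listed, with 179 to 274 CPM at 12 h and 166 to 194 CPM in naive. The 1 listed macrophage marker (of 9) stood at 5.03, 2.19 and 2.12 CPM at 12 h, against 0.352, 0.118 and 0.325 CPM in naive, highest in replicate 1, where Itga5 was also highest. The 12 neuronal markers gave 1423 to 1574 CPM at 12 h and 1198 to 1445 CPM in naive. The part of these cells in the 12 h values was not tested.

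At 24 h 3 members were higher and 2 lower, with 1.25% of all genes higher and 1.44% lower. Col28a1 had 754, 849 and 795 CPM in naive, 780, 772 and 738 at 4 h, 631, 654 and 540 at 12 h, and 495 and 388 CPM at 24 h. Its 24 h libraries were the lowest of the series (log2 fold change -0.88 ± 0.13, FDR 0.0027). Col14a1 had 103, 95.7 and 118 CPM in naive, 115, 112 and 118 at 4 h, 100, 84 and 98.2 at 12 h, and 53.4 and 48.6 CPM at 24 h (24 h log2 fold change -1.07 ± 0.15, FDR 0.0016). Lamb2 had 43.6 and 49.3 CPM in 24 h libraries and 27, 21.8 and 20 CPM in naive (1.00 ± 0.20, FDR 0.018). Col5a3 was higher by 0.75 (FDR 0.063). Lamb2 was not called without 24 h replicate 3, and Col5a3 was called only without naive replicate 2. With 2 libraries at 24 h, a library left out changed the count to between 4 and 6, and DESeq2 called 8. The 3 listed fibroblast markers summed to 91.8 and 102 CPM at 24 h, against 169 to 203 CPM in naive, and their part in the lower Col14a1 was not tested.

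**Figure D3:**
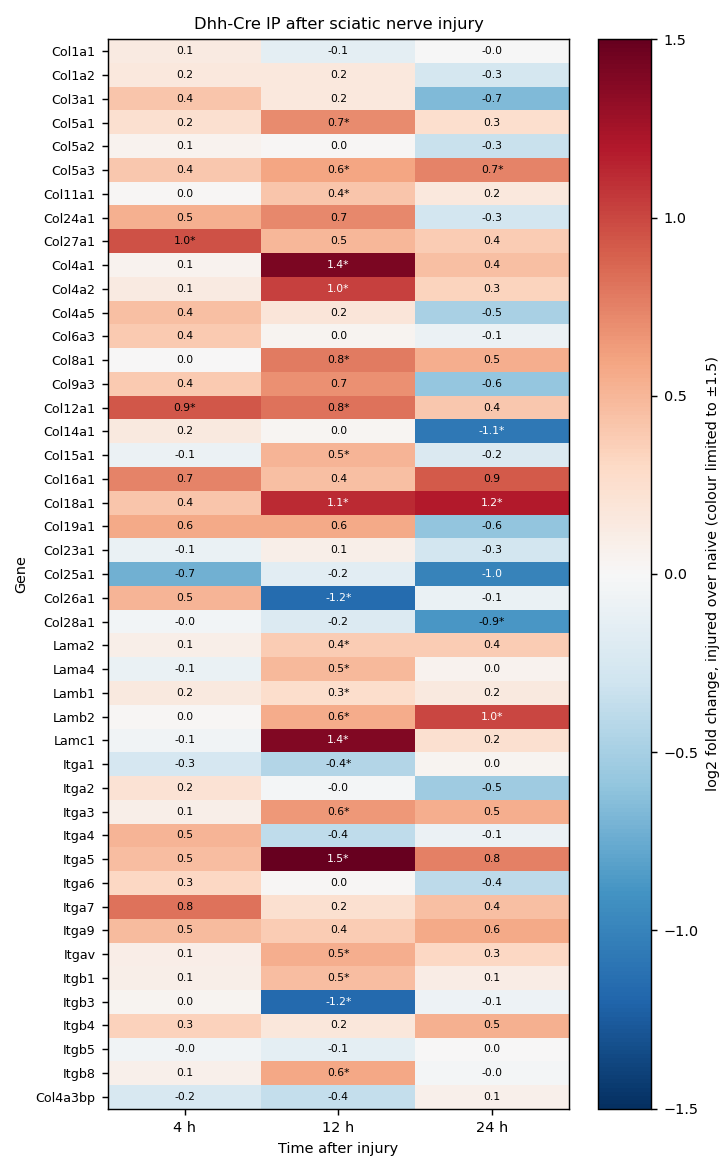
Fold change of injured over naive Dhh IP at 4, 12 and 24 h (log2, colour limited to 1.5, printed value, asterisk at FDR under 0.1) for the 45 tested genes. The 12 h column holds 22 called genes, with Col4a1, Col4a2, Lamc1, Col18a1 and Itga5 the highest.

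In the neuronal pulldown only 14 members were listed, of which all 14 were tested. At 4 h 0 were higher and 0 lower, with 0.625% of all 11351 genes higher and 2.48% lower. At an unadjusted p under 0.05 there was 1, and DESeq2 called 0. At 24 h, 4 members were higher and 0 lower, with 11.1% of all genes higher and 7.43% lower, and all 4 belong to the laminin and integrin families.

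Of the 4 genes called at 24 h, Itga7 differed most. It had 91.9, 95.9 and 92 CPM in naive, 106, 134 and 111 at 4 h, 109, 86 and 119 at 12 h, and 256, 204 and 199 CPM at 24 h in the Isl1 IP. The 24 h libraries were all above the others, with a log2 fold change of 1.26 ± 0.12 (FDR 2e-05). Itga3 had 80.2, 73.6 and 76.8 CPM in naive, 76.8, 96.3 and 85.5 at 4 h, 82.2, 76.4 and 91.8 at 12 h, and 123, 126 and 110 CPM at 24 h (24 h log2 fold change 0.67 ± 0.09, FDR 0.00032). Itgb1, the beta chain that both pair with, had 405, 430 and 460 CPM in 24 h libraries and 346, 335 and 357 CPM in naive (0.34 ± 0.06, FDR 0.0018). Lamb1 had 21, 20.8 and 22.9 CPM in 24 h libraries and 17.6, 15.9 and 16.2 CPM in naive (0.41 ± 0.13, FDR 0.058). The 6 integrins listed summed to 821 CPM (815 to 830) at 24 h and 561 CPM (549 to 569) in naive. Markers of myelinating Schwann cells (8 of 10 listed) gave 784 to 860 CPM at 24 h and 833 to 861 CPM in naive. The 1 listed perineurial marker (of 4) stood higher, at 62.3, 52.2 and 54.1 CPM at 24 h against 28.5, 30.6 and 29.6 CPM in naive, and its part was not tested. Lamb1 was not called without 24 h replicate 3 or naive replicate 2 or 3.

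At 12 h, 4 members were higher and 0 lower, with 2.33% of all genes higher and 2.81% lower, but no call was left once replicate 3 at 12 h, or any 1 of the 3 naive libraries, was left out. Without 12 h replicate 2, 6 were called. Col4a1 had 3.3, 2.37 and 2.82 CPM in naive, 3.1, 2.62 and 3.61 at 4 h, 6.8, 5.63 and 39.7 at 12 h, and 4.53, 7.42 and 5.04 CPM at 24 h (12 h log2 fold change 2.63 ± 0.59, FDR 0.039). Lamc1 had 14.1, 9.75 and 46.1 CPM in 12 h libraries and 8.8, 8.45 and 8.55 CPM in naive (1.45 ± 0.40, FDR 0.076). Replicate 3 stood far above the others for both genes. Col4a2 (1.52 ± 0.37) and Itgav (1.04 ± 0.30) had the same high library, with 24 and 21.9 CPM in replicate 3. Without that library 0 members were called, with Lamc1 at 0.49 ± 0.14 (FDR 0.106) and Itgav at 0.41 ± 0.16 (FDR 0.21), and Col4a1 and Col4a2 no longer exceeded 1 FPKM. In replicate 3 the markers of myelinating Schwann cells gave 1247 CPM, against 842 and 836 CPM in the other 12 h libraries. The 2 listed fibroblast markers (of 9) gave 112 CPM there, against 33.5 and 30.7, and the part of other cells in these values was not tested.

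**Figure D4:**
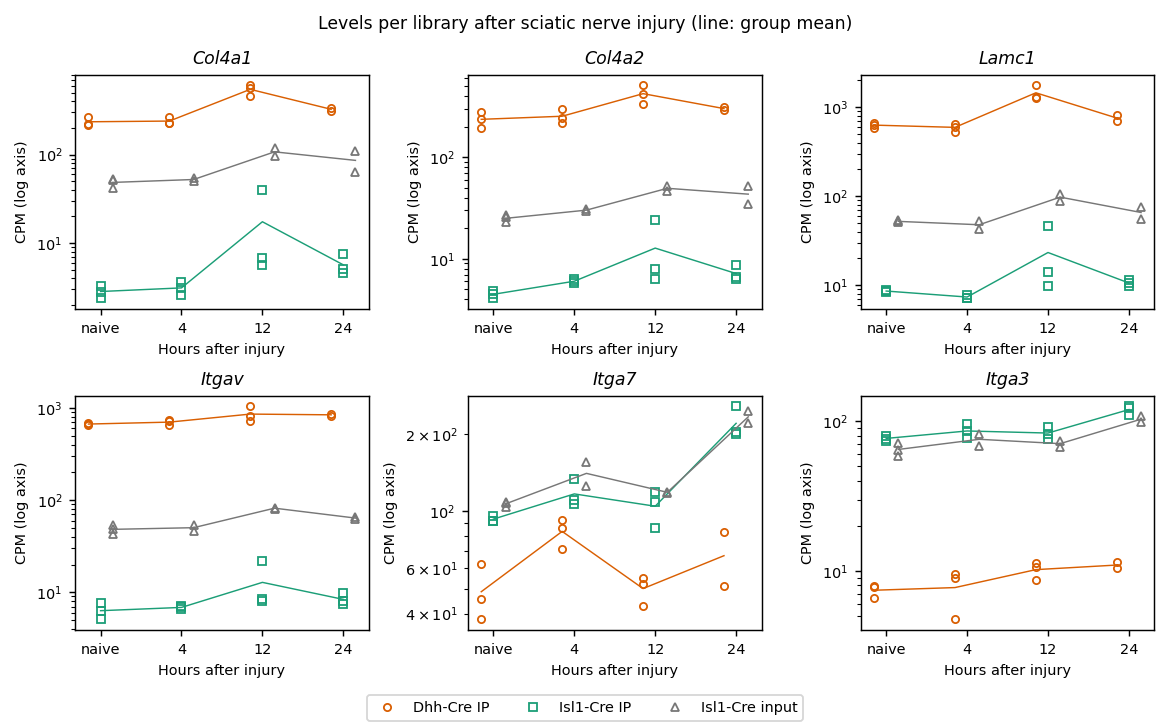
CPM (log axis) of 6 genes in every library of the injury series, with hours after injury on the x axis and lines through group means, for Dhh IP, Isl1 IP and Isl1 input. Col4a1, Col4a2 and Lamc1 peaked at 12 h in the Dhh IP, 1 Isl1 IP library at 12 h stood apart, and Itga7 and Itga3 were highest at 24 h in both Isl1 fractions.

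The whole ganglion, measured as Isl1 input, held some of the changes of each pulldown. At 12 h 1 of 5 laminins was higher there, where all 5 were higher in the Dhh IP. At 4 h 1 of 38 members was higher and 0 lower, with 0.521% of all 12291 genes higher and 0.765% lower. This was Itga7 (0.45 ± 0.09, FDR 0.056), which with 1 library left out was called only without 4 h replicate 3. At an unadjusted p under 0.05 there were 6 members, and DESeq2 called 2 higher and 1 lower. At 12 h 5 were higher and 4 lower, with 2.22% and 2.25% of all genes, and at 24 h 9 were higher and 3 lower, with 5.65% and 2.74%. Each injured input group held 2 libraries, and without 12 h replicate 3 only 1 member was called at 12 h (5 without 12 h replicate 2 or naive replicate 1). Without 24 h replicate 3, 17 were called at 24 h.

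Col4a1 had 52.2, 41.9 and 51.1 CPM in naive, 50.7 and 53.7 at 4 h, 95.8 and 119 at 12 h, and 109 and 63 CPM at 24 h in the Isl1 input. All 12 h and 24 h libraries exceeded all naive ones (1.20 ± 0.19 at 12 h, FDR 0.017, and 0.87 ± 0.20 at 24 h, FDR 0.026). Lamc1 had 88.4 and 107 CPM in 12 h input and 50.7, 53.6 and 52.2 CPM in naive (0.96 ± 0.14, FDR 0.011). Itgav had 82.8 and 80.7 CPM in 12 h input and 53.2, 42.9 and 48.3 CPM in naive (0.81 ± 0.09, FDR 0.0054). Col4a2 differed by 1.03 ± 0.15 at 12 h and 0.84 ± 0.15 at 24 h. Endothelial markers, which cover another source of type IV collagen, summed to 76 and 84 CPM at 12 h and 81.2 to 84.7 CPM in naive input. At 24 h they summed to 83 and 97.5 CPM, and their part was not tested.

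Itga7 had 220 and 245 CPM in 24 h input and 109, 107 and 104 CPM in naive (1.16 ± 0.09, FDR 2.6e-05). Itga3 had 108 and 98.8 CPM in 24 h input and 71.2, 59.1 and 64.3 CPM in naive (0.71 ± 0.11, FDR 0.0038). Both differences were close in size to those of the Isl1 IP. Col28a1 was lower. It had 90.6, 82.4 and 95.6 CPM in naive, 80.5 and 78.9 at 4 h, 60.3 and 57 at 12 h, and 49.4 and 50.3 CPM at 24 h (24 h log2 fold change -0.81 ± 0.08, FDR 0.0002). At 12 h Itgb4 (-0.90 ± 0.20), Col14a1 (-0.53 ± 0.14) and Itgb5 (-0.41 ± 0.10) were lower too, but each was called in only 1 of 5 fits with 1 library left out. Myelinating Schwann cell markers were lower at the same times, 2490 and 2998 CPM at 12 h and 2387 and 2915 CPM at 24 h, against 3474 to 3993 CPM in naive input, and their part in these falls was not tested.

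Whether ribosome-bound mRNA changed otherwise than total mRNA was tested as the Isl1 IP response minus the Isl1 input response. Of the 14 members, 0 were called in either direction at 4, 12 or 24 h. Over all 11361 genes 0% were higher and 0.0264% lower at 4 h, 0.0176% higher and 0% lower at 12 h, and 0% in both directions at 24 h, so the test called almost nothing in any gene. At an unadjusted p under 0.05 there were 0, 5 and 1 members at 4, 12 and 24 h, and DESeq2 called 0 at each time. For Itga7 the 24 h responses were 1.26 ± 0.12 in IP and 1.16 ± 0.09 in input.

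The Dhh IP response minus the Isl1 IP response was tested over 9974 genes. At 4 h 0 members were higher or lower, with 0.521% of all genes higher and 0.341% lower, and at 24 h 0 were, with 1.1% higher and 1.76% lower. At an unadjusted p under 0.05 there were 1 and 3, and DESeq2 called 0 at 4 h and 2 lower at 24 h. At 12 h 1 was higher and 1 lower, with 12.5% and 13.2% of all genes, beside 7.14% of the members each way. With 1 library left out the count of called members ran from 1 to 5 (5 without Isl1 IP 12 h replicate 2, and 1 without Dhh IP 12 h replicate 2, naive Dhh IP replicate 1 or 2, or naive Isl1 IP replicate 1 or 3). Itgb1 was higher by 0.36 ± 0.13 (FDR 0.062) in the glial response, a call lost in 7 of 12 fits with 1 library left out (FDR up to 0.133). Col28a1 was lower by 1.39 on the log2 scale (-1.39 ± 0.40, FDR 0.019). It fell short of a call in either line alone at 12 h, with 16, 3.96 and 17.7 CPM in 12 h Isl1 IP against 6.48, 4.97 and 5.76 CPM in naive. The 24 h rise of Itga7 in the neuronal IP was not shown to differ from the glial response.

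**Figure D5:**
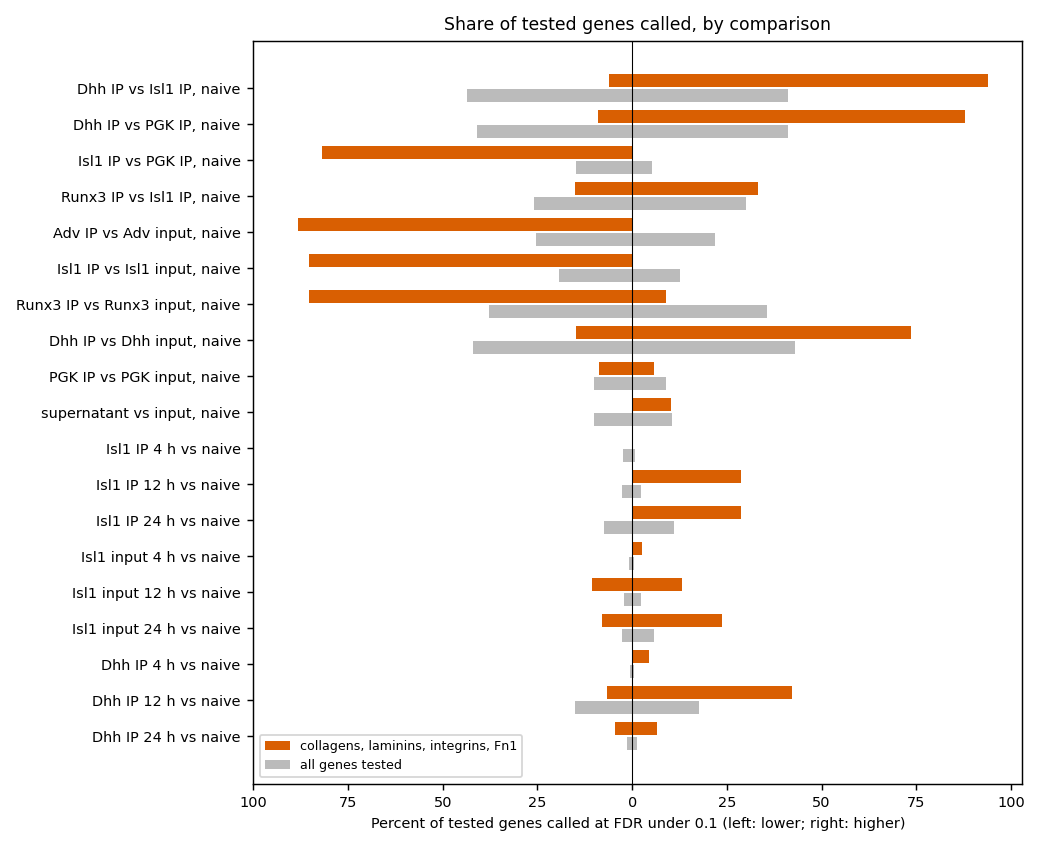
Percent of tested genes called at FDR under 0.1 in each comparison, higher to the right and lower to the left, for the collagens, laminins, integrins and Fn1 (with Col4a3bp) and for all genes tested. At 12 h in the Dhh IP the bars to the right are 42.2% for these genes and 17.7% for all genes.

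Lists of genes that make, anchor and cut the matrix were read beside the members, as counts with up to 3 genes of smallest p. In naive glia against neurons, where 41.2% of all genes were higher and 43.5% lower, 13 of 14 basement membrane partners were higher and 0 lower, among them the linker Nid1 (7.21 ± 0.52), Agrn (4.58 ± 0.20) and Drp2 (5.36 ± 0.22). Of 16 collagen modifying enzymes 14 were higher and 2 lower, with the crosslinking enzyme Lox at 7.58 ± 0.53. Of 23 adhesion adaptors 13 were higher and 6 lower, with Tns3 at 4.93 ± 0.16 but Parvb at -4.07 ± 0.16 and Actn1 at -3.18 ± 0.14. Of 15 other matrix proteins 13 were higher and 0 lower, among them Thbs3 (3.33 ± 0.19), Fbln2 (7.66 ± 0.52) and Thbs2 (6.51 ± 0.50), and of 15 proteases and inhibitors 10 were higher and 4 lower, with Adamts5 at 6.83 ± 0.31 and Plau at -3.50 ± 0.22.

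The lists were also counted in 3 of the injury comparisons, without a test between times or lines. In the Dhh IP at 12 h, where 17.7% of all genes were higher and 15.2% lower, 9 of 22 adhesion adaptors were higher and 1 lower, with Tns1 at 0.89 ± 0.13 and Actn4 at 1.10 ± 0.17. Enzymes of collagen modification counted 5 higher and 2 lower of 17, with Lox at 1.10 ± 0.15, and other matrix proteins 3 higher and 0 lower of 13, with Tnc (2.23 ± 0.24), Fbn1 (1.44 ± 0.16) and Thbs1 (1.30 ± 0.21). Among proteases and inhibitors 4 of 12 were higher and 1 lower, with Adamts1 at 3.67 ± 0.34, Plat at 1.49 ± 0.14 and Timp3 at 1.19 ± 0.11. Basement membrane partners gave 2 higher and 1 lower of 13, a share near that of all genes, with Sparc at 0.35 ± 0.12.

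In the Isl1 IP at 24 h, where 11.1% of all genes were higher and 7.43% lower, 7 of 13 collagen modifying enzymes were higher and 2 lower, with Plod3, a lysyl hydroxylase, at 0.78 ± 0.08, although only 5 collagen genes were listed there and 0 of them were called. Of 24 adhesion adaptors 5 were higher and 0 lower, with the focal adhesion kinase gene Ptk2 at 0.30 ± 0.07 and Vcl at 0.32 ± 0.08. Of 13 proteases and inhibitors 7 were higher and 1 lower, with the metalloproteinase inhibitor Timp1 at 5.00 ± 0.46 and the urokinase receptor Plaur at 1.96 ± 0.20. Of 8 basement membrane partners 0 were higher and 0 lower. In the Isl1 input at 24 h, where 5.65% of all genes were higher and 2.74% lower, the enzymes counted 6 higher and 0 lower of 17 and the proteases and inhibitors 7 higher and 1 lower of 17, with Plaur at 2.10 ± 0.18 and Timp1 at 3.05 ± 0.39.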

How the data were processed

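RNA was extracted from DRG lysates and HA pulldowns, depleted of ribosomal RNA and amplified as cDNA. Paired-end reads of 50 bases were aligned by the authors with STAR to mm10 and counted per gene with HTSeq, unique reads only, and the deposited tables hold these counts. The submitters' processing notes also name CASAVA 1.8.2, edgeR and mm9. Beside each count the authors deposited a normalised signal (the count scaled by library), which was not used. No source used here names molecular identifiers, so precision rests on the replicates.

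Each table was fitted apart with edgeR 4.0.16 (R 4.3.3), with TMM factors, a group-means model, the quasi-likelihood F test and Benjamini-Hochberg adjustment over all genes with a mean FPKM above 1 (transcript lengths from GENCODE M21). Calls used FDR under 0.1, and the SE is the absolute log2 fold change over the square root of F. IP or supernatant against input, and differences between responses, joined the raw counts of the tables in 1 fit. Gene symbols turned into dates were restored by accession, and 1 such row that matched no separate gene was left out of each injury table. Totals were 29710143 to 54088821 counts in 76 libraries with counts of 77 labelled samples. Dhh injury samples, labelled as sensory neurons, were grouped by line. Alternatives were RLE factors, no filter, DESeq2 1.42.0, each library left out and a replicate block. Replicates of all 71 pairs differed beyond sampling noise (chi-square per gene 5.5 to 294). Same-numbered libraries were taken to deviate together where every correlation of deviations exceeded 0.1 in 3 pairs. This held for IP against input of Isl1 (0.423 to 0.742) and PGK (0.276 to 0.843). The reported fits did not pair libraries, in these lines either, and pairing entered only through the replicate block. The members and gene lists were chosen with earlier results of these data known. Genes given with values are a fixed set over all roles and, per comparison, up to 4 called members each way of largest change, with a mean count of at least 50 and groups that do not overlap. Other called members were named after their values were seen. The tests were tested on simulated data.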

Additional observations from a re-analysis of the deposited data

Results flagged for a closer look

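Col28a1 and Itgb1 were picked out because their 12 h response to injury differed between the Dhh IP and the Isl1 IP in a test of the difference itself. For Col28a1 the Dhh response minus the Isl1 response was -1.39 (log2, FDR 0.019, edgeR), with 631, 654 and 540 CPM at 12 h against 754, 849 and 795 CPM in naive Dhh IP, and 16, 3.96 and 17.7 CPM at 12 h against 6.48, 4.97 and 5.76 CPM in naive Isl1 IP. Replicates 1 and 3 of the 12 h Isl1 IP were high and replicate 2 was not. For Itgb1 the difference was 0.36 (FDR 0.062, not called in 7 of 12 fits with 1 library left out), with 544, 540 and 410 CPM at 12 h against 399, 380 and 453 CPM in naive Dhh IP, and 350, 345 and 384 CPM at 12 h against 346, 335 and 357 CPM in naive Isl1 IP, and the libraries overlapped in both lines.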

How the results depend on the processing

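Counts of members called at FDR under 0.1 are given under each alternative where they moved by more than 1.5 times. They stand without the share of all genes called under the same alternative. Without the filter on low values they were 68 for Dhh against Isl1 IP (33 as reported), 68 for Dhh against PGK IP (32), 54 for Isl1 against PGK IP (27), 41 for Runx3 against Isl1 IP (16), and for IP against input 55 in Adv (30), 53 in Isl1 (29), 61 in Runx3 (32) and 63 in Dhh (30), and 8 for supernatant against input (4), as more genes were tested. DESeq2 called 8 in the Dhh IP at 24 h (5) and 4 at 4 h (2), 2 for the Dhh minus Isl1 IP response at 24 h (0), and 3 in the Isl1 input at 4 h (1). With the replicate block the counts were 9 for PGK IP against input (5), 17 for supernatant against input (4), 3 in the Isl1 input at 12 h (9) and 0 at 4 h (1), and 1 for the Dhh minus Isl1 IP response at 24 h (0). Input is part of the lysate used for IP, but the labels do not say that a number marks 1 lysate, and apart from IP against input of Isl1 and PGK same-numbered samples did not all deviate together. RLE factors changed no count by 1.5 times and no call of the 484 named values. The cause of the DESeq2 and block differences was not tested.

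With 1 library left out, counts ran from 2 to 5 for PGK IP against input, 1 to 3 for supernatant against input, 0 to 6 in the Isl1 IP at 12 h (0 without 12 h replicate 3 or any 1 naive library), 0 to 1 in the Isl1 input at 4 h and 1 to 9 at 12 h, 8 to 17 at 24 h, 0 to 2 in the Dhh IP at 4 h, 0 to 1 for the Isl1 IP minus input response at 12 h, 1 to 5 for the Dhh minus Isl1 IP response at 12 h and 0 to 2 at 24 h. Of 3035 named values with a library left out, 2862 kept their direction and side of the threshold, 139 lost a call, 32 gained one and 2 turned round. Itgb8 in the Isl1 input at 24 h ran from -0.49 to 0.42 (0.03 as reported), and Lamc1 in the Dhh minus Isl1 IP response at 12 h from -0.46 to 0.86 (-0.09 as reported, 0.86 without Isl1 IP 12 h replicate 3). Groups of 2 libraries (Dhh IP in the naive table, 24 h Dhh IP, injured Isl1 input) and genes under 1 FPKM limit what could be called.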

Other observations

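The naive tables and the naive libraries of the injury tables carry the same line and fraction, yet some members differed strongly between them. In the Dhh IP, Itgb8 averaged 867 CPM in the injury table and 37.1 CPM in the naive table, Itga6 647 and 74.4 CPM, Itga1 73.7 and 7.6 CPM, and Itga2 34.4 and 1.2 CPM. Col16a1 (10.6 CPM in the injury table and 248 CPM in the naive table) and Itga7 (48.7 and 235 CPM) differed the other way, which for Itga7 turned the order of Dhh IP and Isl1 IP round, so 6 of 45 shared members were over 4-fold apart, against 20.7% of all shared genes. In the Isl1 IP this held for Itga6 (24.8 and 5.62 CPM), 1 of 14 members, against 1.13% of genes, and in the Isl1 input for Itga6 (63.4 and 6.08 CPM) and Itgb8 (41.6 and 1.4 CPM), 2 of 38, against 3.18%. No library of either table overlapped the other for these genes. The cause was not tested. These genes were chosen after their values were seen.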
